A study of Homo sapiens with 6 samples.

Results

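Genes for the synthesis of cholesterol and fatty acids were examined in DKO1 cells and in the HCT116 cells they derive from. The set held 27 genes, namely 18 enzymes from acetyl-CoA to cholesterol, 5 regulators and carriers of sterols, and 4 genes of fatty acid synthesis. Rows of the deposited table were matched to these symbols through their Ensembl identifiers, which gave 26 genes of the 57820 human gene rows. No row matched ACACA, an acetyl-CoA carboxylase, by identifier, and it was not analysed here.

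HCT116 is an established human colorectal cancer cell line. DKO1, given with 3 samples, is the same line with DNMT1 and DNMT3B knocked out, and WT, also given with 3 samples, is the parental line. Both lines were kept in McCoy's 5A medium to which foetal serum was added, and stranded libraries were made of polyadenylated RNA. All DKO1 samples are of 1 derived line, so the loss of the 2 methyltransferases and other differences between the lines cannot be told apart. The comparison asks which transcripts differ between the 2 lines.

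Cholesterol is built from acetyl-CoA through mevalonate, farnesyl diphosphate, squalene and lanosterol. The transcription factors SREBP-2 and SREBP-1, encoded by SREBF2 and SREBF1, switch on these enzymes and those of fatty acid synthesis when sterols are scarce. They leave the endoplasmic reticulum with the escort protein SCAP, and INSIG proteins hold them there when sterols are plentiful. Proliferating cancer cells draw on both routes for membrane lipids.

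The values are TPM, a relative transcript level; they allow for the length of each gene and add up alike in all samples. They give a gene's share of the RNA in a bulk sample, so fewer cells that transcribe a gene and less of its RNA per cell cannot be told apart. DNMT1, which copies methylation at replication, was at 36.2 ± 9.17 TPM in DKO1 and 242 ± 9.81 TPM in WT, and DNMT3B, which adds methylation, was at 4.42 ± 0.75 TPM in DKO1 and 7.36 ± 0.76 TPM in WT (SD, n = 3 each; adjusted p = 3.59e-05 and 0.03). Mitochondrially encoded transcripts took 21.2% to 27.7% of the TPM in DKO1 samples and 19.7% to 20.1% in WT samples. The epithelial markers EPCAM and KRT8 were at 371 to 500.4 and 142 to 258 TPM in DKO1, and at 457 to 536 and 326 to 488 TPM in WT, while CLDN3, VIL1 and CDX1 stayed below 0.5 TPM in every sample. The 12 epithelial markers summed to 718 to 968 TPM in DKO1 and 959 to 1203 TPM in WT. Of 9 that were tested, CDH1 (9.82 TPM in DKO1 and 2.97 TPM in WT) and CLDN4 (5.41 and 2.32 TPM) were called higher and CDX2 (0.643 and 1.31 TPM) lower. The median log2 fold change of the 9 was 0.40. CDX2 reached 1 TPM in WT samples only, so it passed the filter given below through WT and could be called in no other direction. A limma fit with the replicate number also called KRT8 (adjusted p = 0.0543, and 0.011 with the number) and KRT18 (0.255 and 0.047) lower. That fit thus had 2 markers higher and 3 lower. The summed level of 7 fibroblast markers was 3.19 to 3.61 TPM in DKO1 and 1.18 to 1.84 TPM in WT, that of 7 blood markers 4.08 to 4.75 and 0.36 to 0.65 TPM, and that of 6 hepatocyte markers 2.26 to 3.92 and 1.22 to 1.26 TPM. Of these 20 markers, LYZ and SERPINA1 passed the filter of at least 1 TPM in at least 3 samples, through DKO1 alone, and were called higher there, and 1 blood marker was listed at 0 in every sample. Their part in the results below was not tested.

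Of the 26 members, all of which passed that filter, 6 fell in DKO1 (IDI1, CYP51A1, SCD, MSMO1, STARD4 and ACAT2) and 2 rose (SQLE and TM7SF2), at an adjusted p below 0.05 in limma. That is 23.1% of members lower and 7.69% higher, against 9.6% lower and 18.8% higher among all 13604 tested genes. TM7SF2 reached 1 TPM in DKO1 samples only, so it passed the filter through the group in which it was high and could be called in no other direction. The median log2 fold change, DKO1 minus WT on the log2(TPM + 1) scale, was −0.32 over the members and 0.07 over all tested genes. In all 17 members had a negative and 9 a positive log2 fold change. A further 18 members did not pass, of which 11 had a negative and 7 a positive value. Samples with the same replicate number deviated together in both lines, and a fit that takes the number into account called 9 members lower (34.6%) and 2 higher, against 13.4% lower and 22.4% higher among all tested genes. INSIG1, DHCR7 and HSD17B7 were the 3 added calls. Values of DKO1 lay below all values of WT for 9 members and above them for 2, which is 34.6% and 7.69%, against 17.8% and 27.5% among all tested genes.

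**Figure D1:**
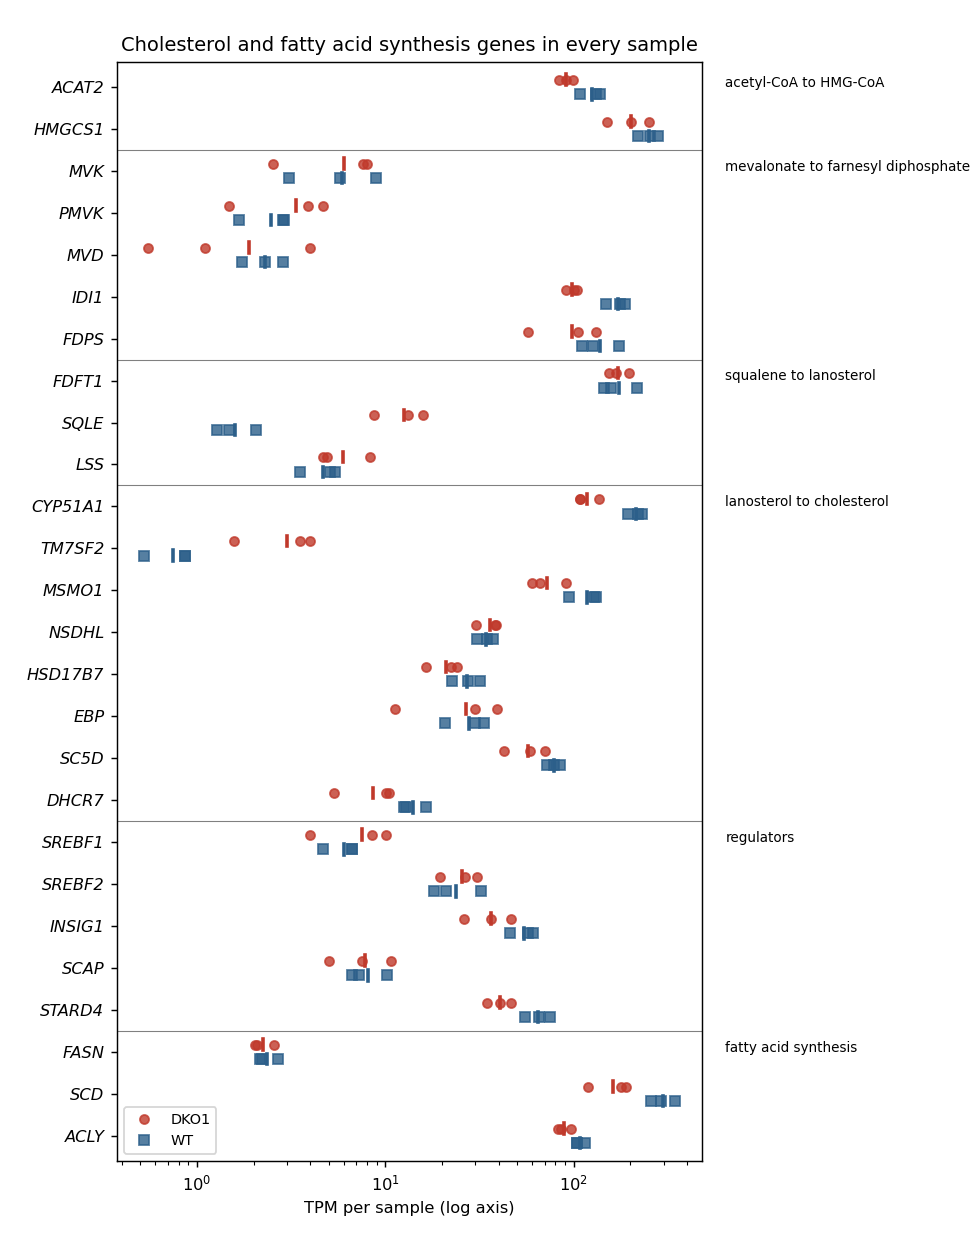
TPM of 26 synthesis genes in each sample on a log axis, grouped by step of the pathway, with DKO1 samples as circles above WT samples as squares and a short bar at each group mean. SQLE and TM7SF2 lie to the right in DKO1 with no overlap, at 12.6 and 3.02 TPM on average against 1.6 and 0.747 TPM in WT, while IDI1, CYP51A1 and SCD lie to the left.

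The levels spanned a wide range, and the enzymes of one chain were far from equal in TPM. In WT the highest were SCD at 298, HMGCS1 at 252 and CYP51A1 at 215 TPM, and the lowest were MVD at 2.3, SQLE at 1.6 and TM7SF2 at 0.747 TPM. GC content of the transcript was 47.1%, 40.2% and 41.5% for SCD, HMGCS1 and CYP51A1. For MVD, SQLE and TM7SF2 it was 65.6%, 46.5% and 62%. The part of GC content in the order of levels was not tested. In DKO1 HMGCS1 came first at 201 TPM, then FDFT1 at 172 and SCD at 162 TPM, whose ranges over the 3 samples overlapped. SQLE was in place 17 of 26 in DKO1 and in place 25 in WT. The summed TPM of the 26 members was 1390, 1387 and 1430 in DKO1 and 2169, 1973 and 1728 in WT, a ratio of the means of 0.717. The sum over fatty acid synthesis stood at a ratio of 0.618, that from mevalonate to farnesyl diphosphate at 0.65 and that from lanosterol to cholesterol at 0.664. For FDFT1, which makes squalene, with SQLE and LSS, which turn it into lanosterol, the ratio was 1.07, of a sum made up mostly of FDFT1.

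Promoter sequence was compared because genes of this set are known to respond to shared transcription factors. Windows of 300 bases, from 250 before to 50 after a gene's start, were present in the RefSeq promoter table (GRCh38.p14) for 23 of the 27 genes, ACACA included. None was present for SQLE, FDFT1, FASN and ACAT2, which were not searched. The core of the sterol regulatory element bound by SREBPs, TCACNCCAC, was searched on both strands. It occurred in 1 of the 23, SREBF2, which is 4.35% of them against 1.39% of 27305 genes. Elements with other letters or outside these windows were not searched for. The NF-Y box CCAAT, a site for a factor that acts beside SREBPs, occurred on either strand in 19 members (82.6%) against 39.7% of genes. The Sp1 box GGGCGG was found in 22 members (95.7%) against 48.3% of genes, and the E-box CACGTG in 4 members (17.4%) against 8.77%. Promoters of the members were also rich in CpG, the site of the methylation that DNMT1 and DNMT3B maintain. The ratio of observed to expected CpG, taken from a gene's richest window, ranged from 0.692 to 1.1 with a median of 0.866, and all 23 members reached 0.6, against 51.9% of all genes. The shares set against the members cover all 27305 genes of the promoter table, whether or not they are expressed in these cells. The members analysed here all passed the expression filter, and a share among tested genes was not taken. Matches describe letters in these windows and not bound sites, and methylation was not analysed here.

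The 250 bases before the start are shown for SREBF2, the 1 searched member that matched the sterol element core. They are also shown for the called members with the largest changes that can be shown. All run 5′ to 3′ on the strand of the gene. Capitals mark the sterol element core, at positions −133 to −125 before the start of SREBF2, and NF-Y boxes on either strand (CCAAT or its complement ATTGG). The stretches lie at chr22:41832855-41833104 on the plus strand for SREBF2, chr11:65111622-65111871 on the plus strand for TM7SF2, chr10:100346983-100347232 on the plus strand for SCD, chr7:92134478-92134727 on the minus strand for CYP51A1, chr10:1056705-1056954 on the minus strand for IDI1 (the first of its 3 starts in the table) and chr4:165327419-165327668 on the plus strand for MSMO1, all in GRCh38.p14.
SREBF2: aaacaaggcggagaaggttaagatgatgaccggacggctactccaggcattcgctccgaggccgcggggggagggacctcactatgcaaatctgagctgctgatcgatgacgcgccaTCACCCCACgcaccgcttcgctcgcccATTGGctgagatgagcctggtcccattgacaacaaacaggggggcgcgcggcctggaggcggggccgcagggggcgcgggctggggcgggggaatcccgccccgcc
TM7SF2: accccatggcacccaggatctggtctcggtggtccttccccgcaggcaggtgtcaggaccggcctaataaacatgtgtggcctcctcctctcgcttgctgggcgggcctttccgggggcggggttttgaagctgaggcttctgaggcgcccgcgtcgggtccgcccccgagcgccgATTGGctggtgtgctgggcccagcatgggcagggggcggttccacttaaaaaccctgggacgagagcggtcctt
SCD: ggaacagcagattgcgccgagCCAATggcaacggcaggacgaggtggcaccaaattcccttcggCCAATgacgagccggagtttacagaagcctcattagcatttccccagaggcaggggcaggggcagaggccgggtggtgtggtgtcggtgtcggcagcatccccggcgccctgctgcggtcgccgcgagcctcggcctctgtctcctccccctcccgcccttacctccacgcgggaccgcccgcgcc
CYP51A1: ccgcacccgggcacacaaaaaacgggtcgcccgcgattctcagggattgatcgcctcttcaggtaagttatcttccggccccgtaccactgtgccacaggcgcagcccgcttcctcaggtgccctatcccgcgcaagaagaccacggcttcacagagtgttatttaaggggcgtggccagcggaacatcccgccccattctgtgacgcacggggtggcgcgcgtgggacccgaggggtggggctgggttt
IDI1: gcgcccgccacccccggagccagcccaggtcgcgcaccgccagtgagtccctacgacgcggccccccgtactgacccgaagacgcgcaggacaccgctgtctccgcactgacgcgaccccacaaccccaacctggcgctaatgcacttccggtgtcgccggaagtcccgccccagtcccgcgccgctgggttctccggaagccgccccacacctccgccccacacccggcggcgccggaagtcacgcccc
MSMO1: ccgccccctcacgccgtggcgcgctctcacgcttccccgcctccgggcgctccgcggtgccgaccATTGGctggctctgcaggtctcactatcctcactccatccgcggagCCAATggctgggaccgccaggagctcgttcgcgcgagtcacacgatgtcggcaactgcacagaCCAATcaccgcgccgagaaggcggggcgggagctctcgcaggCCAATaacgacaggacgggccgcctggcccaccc
MSMO1 held 4 NF-Y boxes in this stretch, SCD 2, SREBF2 and TM7SF2 1 each, and CYP51A1 and the shown start of IDI1 none. The stretches held between 18 CpG sites (TM7SF2) and 33 (IDI1). TM7SF2, which rose, and SCD, which fell, thus each held NF-Y and Sp1 boxes.

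The first steps join acetyl units into HMG-CoA. ACAT2, the cytosolic thiolase that makes acetoacetyl-CoA, was at 98.7, 90.9 and 83.8 TPM in DKO1 and at 137, 132 and 107 TPM in WT. All DKO1 values lay below all WT values, and the log2 fold change was −0.45 (SE 0.13, adjusted p = 0.0391). The call was lost in 10 of 15 alternatives, among them those without WT replicate 1 or 2 (0.148 and 0.146) and without DKO1 replicate 1, 2 or 3 (0.0645, 0.0733 and 0.0773), with adjusted p-values from 0.0137 to 0.185. ACAT2 overlaps TCP1, a chaperonin gene on the opposite strand at 792 to 922 TPM in DKO1 and 1026 to 1164 TPM in WT, so reads of the pair may be shared. HMGCS1, which adds the next acetyl unit, was at 151, 201 and 250.3 TPM in DKO1 and at 256, 280.1 and 219.9 TPM in WT. These groups overlapped and the gene did not pass (log2 fold change −0.35, SE 0.19, adjusted p = 0.222).

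From mevalonate to farnesyl diphosphate, IDI1 fell and the other enzymes did not pass. IDI1 interconverts the isoprene units isopentenyl and dimethylallyl diphosphate. It was at 90.6, 104 and 100.2 TPM in DKO1 and at 177, 187 and 149 TPM in WT. All DKO1 samples were below all WT samples, 1.74-fold lower by the means (log2 fold change −0.79, SE 0.12, adjusted p = 0.00285), and the call held in each of 15 alternatives, with an adjusted p from 0.00215 to 0.0376. FDPS, which joins the units into farnesyl diphosphate, was at 105, 57.1 and 131 TPM in DKO1 and at 175, 110.1 and 127 TPM in WT, with overlapping groups (log2 fold change −0.54, SE 0.31, adjusted p = 0.239). Its 8 annotated pseudogenes were listed at 0.26 TPM or less in every sample. The kinases MVK and PMVK and the decarboxylase MVD, which turn mevalonate into isopentenyl diphosphate, averaged 6.06 ± 3.05, 3.35 ± 1.66 and 1.88 ± 1.84 TPM in DKO1 and 5.9 ± 2.9, 2.48 ± 0.71 and 2.3 ± 0.57 TPM in WT (SD, n = 3 each). Their adjusted p-values were 0.993, 0.605 and 0.542. MVK overlaps MMAB on the opposite strand, at 11.7 to 19.1 TPM in DKO1 and 10.8 to 13.6 TPM in WT. Without DKO1 replicate 3, MVD was called lower (adjusted p = 0.034, against a range of 0.034 to 0.977 over its alternatives).

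Among the enzymes that make squalene and turn it into lanosterol, SQLE rose, with the largest change of the 26 members. FDFT1 and LSS did not pass. SQLE, squalene epoxidase, carries out the first oxygen-dependent and a rate-limiting step of sterol synthesis. It was at 13.2, 15.9 and 8.74 TPM in DKO1 and at 1.27, 2.05 and 1.47 TPM in WT. The lowest DKO1 value was above the highest WT value, and the mean was 7.89-fold higher in DKO1 (log2 fold change 2.36, SE 0.24, adjusted p = 0.000325). The call held in each of 15 alternatives, with log2 fold changes from 2.07 to 2.89 and adjusted p-values from 0.000224 to 0.00858. FDFT1, squalene synthase, the step just before, was at 196, 154 and 167 TPM in DKO1 and at 216, 158 and 144 TPM in WT, with overlapping groups (log2 fold change 0.01, SE 0.17, adjusted p = 0.972). Within each sample SQLE stood at 6.72%, 10.3% and 5.23% of the FDFT1 level in DKO1, and at 0.587%, 1.29% and 1.02% in WT. LSS, which closes the ring to lanosterol, was at 5.95 ± 2.04 TPM in DKO1 and 4.65 ± 1.01 TPM in WT and did not pass (adjusted p = 0.444).

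The genes beside SQLE on chromosome 8 were looked at after its values were seen. The tested protein-coding genes nearest to it were ZNF572 on one side, at 1.5 to 1.92 TPM in DKO1 and 1.8 to 1.95 TPM in WT, and WASHC5 on the other, at 35.7 to 54.4 and 46.1 to 50.8 TPM. Neither was called (log2 fold changes −0.09 and −0.12, adjusted p = 0.677 and 0.635), nor was NSMCE2 beyond WASHC5 (log2 fold change −0.13, adjusted p = 0.524). MTSS1, beyond ZNF572, was higher in DKO1, at 3.34 to 4.08 TPM against 2.28 to 2.43 TPM in WT (log2 fold change 0.49, SE 0.14, adjusted p = 0.0384). The MTSS1 call was lost in 9 of 14 alternatives, including those without WT replicate 1, 2 or 3 (0.118, 0.132 and 0.114) and DKO1 replicate 1 or 2 (0.128 and 0.0984), in a range of 0.0239 to 0.701.

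From lanosterol to cholesterol, 2 enzymes fell, 1 rose and 5 did not pass. CYP51A1 removes a methyl group from lanosterol and is the target of azole drugs in its fungal form. It was at 108, 137 and 108 TPM in DKO1 and at 218, 230.4 and 195 TPM in WT, 1.82-fold lower in DKO1 with no overlap (log2 fold change −0.87, SE 0.13, adjusted p = 0.0026). Its call held in each of 15 alternatives (adjusted p from 0.00114 to 0.021). MSMO1, the oxidase that acts on the remaining methyl groups, was at 66.4, 90.6 and 60.3 TPM in DKO1 and at 131, 129 and 94.5 TPM in WT. The groups did not overlap, although the highest DKO1 and the lowest WT value were close (log2 fold change −0.70, SE 0.19, adjusted p = 0.0325). The MSMO1 call was lost in 8 of 15 alternatives, among them those without WT replicate 1 or 2 (0.113 and 0.111) and without DKO1 replicate 1 or 3 (0.114 and 0.0647), with adjusted p-values from 0.00582 to 0.114.

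TM7SF2, a sterol reductase of the step after CYP51A1, was the second member to rise. It was at 3.96, 1.58 and 3.52 TPM in DKO1 and at 0.86, 0.52 and 0.86 TPM in WT, with no overlap (log2 fold change 1.15, SE 0.26, adjusted p = 0.0151). With a pseudocount of 0.1 the log2 fold change was 1.81. The call was lost without WT replicate 2 (0.057) and under quantile normalization (0.0541), in a range of 0.00425 to 0.057, and without any 1 DKO1 sample the gene did not pass the filter. TM7SF2 overlaps VPS51 on the same strand, which was at 9.78, 2.95 and 13 TPM in DKO1 and 6.55, 4.27 and 5.92 TPM in WT (adjusted p = 0.58). Reads of these 2 genes may therefore be shared, and strand cannot separate them. Of its neighbours, ZFPL1 was called higher, at 4.54 to 6.59 TPM in DKO1 and 2.21 to 3.4 TPM in WT (log2 fold change 0.79, adjusted p = 0.021, lost without WT replicate 2 or 3 or DKO1 replicate 1, at 0.0747, 0.0902 and 0.0766, in a range of 0.00924 to 0.0902), while CDCA5, FAU and SYVN1 were not. LBR, a nuclear membrane protein able to carry out the same reduction, was named after its values were seen. LBR was at 78.1 ± 9.95 TPM in DKO1 and 105 ± 11.1 TPM in WT (SD, n = 3 each; log2 fold change −0.42, SE 0.14, adjusted p = 0.0598, and 0.0397 with the replicate number in the fit), well above TM7SF2 in both lines.

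DHCR7, which makes cholesterol from its last precursor in one branch, was at 10.1, 5.31 and 10.5 TPM in DKO1 and at 16.4, 12.5 and 12.9 TPM in WT. These groups did not overlap, and the gene passed with the replicate number in the fit and not without it (log2 fold change −0.67, adjusted p = 0.091, and 0.033 with the number). An unnamed antisense gene on the other strand, at 10.6 to 21.7 TPM in DKO1 and 12.7 to 13.5 TPM in WT, overlaps DHCR7, so reads of the 2 may be shared. SC5D, a desaturase of the late pathway, was at 42.6, 58.5 and 70.3 TPM in DKO1 and at 78.2, 85.1 and 72.5 TPM in WT, also without overlap, and did not pass (log2 fold change −0.48, adjusted p = 0.0958). SC5D was called lower under median-ratio scaling (0.0294) and without DKO1 replicate 3 (0.0262), in a range of 0.0262 to 0.266, and DHCR7 under median-ratio scaling (0.0209) and quantile normalization (0.026), in a range of 0.0209 to 0.245. HSD17B7, a reductase of the demethylation steps, averaged 20.9 ± 3.96 TPM in DKO1 and 27.3 ± 4.65 TPM in WT (SD, n = 3 each; adjusted p = 0.19, and 0.0497 with the replicate number), and its transcribed pseudogene HSD17B7P2, at 2.19 to 3.09 TPM in DKO1 and 3.05 to 4.6 TPM in WT, may share its reads. NSDHL, a dehydrogenase of the same steps, and EBP, an isomerase, averaged 35.8 ± 4.68 and 26.7 ± 14.1 TPM in DKO1 and 34.1 ± 3.4 and 28 ± 6.51 TPM in WT, with adjusted p-values of 0.78 and 0.761.

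**Figure D2:**
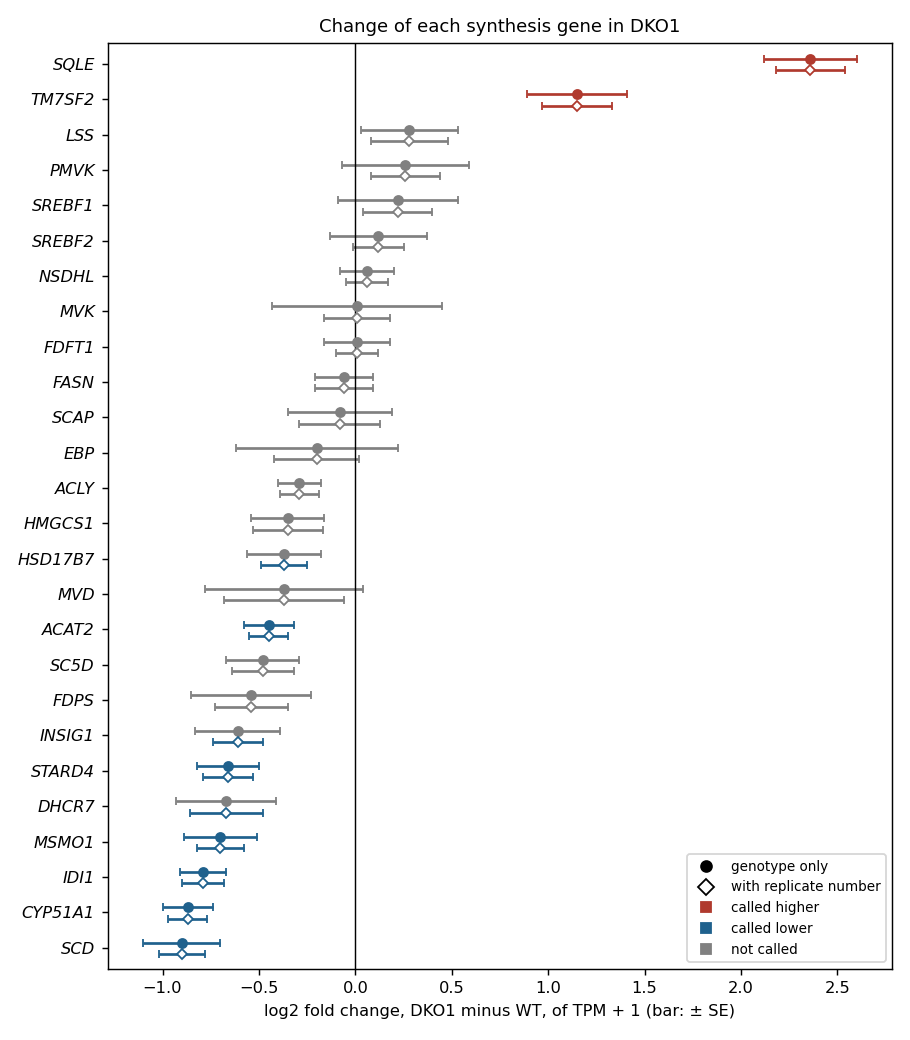
Log2 fold change of TPM + 1, DKO1 minus WT, with its standard error for 26 synthesis genes, from the fit with genotype only (filled circles) and the fit with the replicate number (open diamonds), coloured by call. SQLE stands at 2.36 and TM7SF2 at 1.15, and the lowest values are −0.90 for SCD and −0.87 for CYP51A1.

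Among the 5 regulators and carriers, STARD4 fell and 4 did not pass, the 2 SREBP genes included. SREBF2 was at 30.7, 19.5 and 26.6 TPM in DKO1 and at 32.1, 18.2 and 21 TPM in WT, with overlapping groups (log2 fold change 0.12, SE 0.25, adjusted p = 0.756). SREBF1 was at 8.47, 3.99 and 10.1 TPM in DKO1 and at 6.68, 4.64 and 6.66 TPM in WT, also overlapping (log2 fold change 0.22, SE 0.31, adjusted p = 0.644). SREBF2 stood at 2.63 to 4.88 times the SREBF1 level in DKO1 samples and 3.16 to 4.8 times in WT samples. SCAP, the escort of the precursors, was at 7.55, 5.04 and 10.7 TPM in DKO1 and at 10.2, 6.68 and 7.27 TPM in WT (log2 fold change −0.08, SE 0.27, adjusted p = 0.862).

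INSIG1, which retains SCAP in the endoplasmic reticulum, was at 36.4, 46.3 and 26.2 TPM in DKO1 and at 60.9, 57.5 and 45.9 TPM in WT. The highest DKO1 value was just above the lowest WT value, and the gene passed with the replicate number in the fit and not without it (log2 fold change −0.61, SE 0.22, adjusted p = 0.0752, and 0.0144 with the number). Without DKO1 replicate 2 it was also called lower (0.0272), in a range of 0.0144 to 0.208. STARD4, a sterol carrier of the cytosol, was at 34.7, 46.4 and 40.8 TPM in DKO1 and at 65.3, 74.6 and 55.1 TPM in WT. All DKO1 samples were below all WT samples (1.6-fold, log2 fold change −0.66, SE 0.16, adjusted p = 0.0197). The STARD4 call was lost without WT replicate 1 or 2 (0.0725 and 0.0837) and without DKO1 replicate 1 (0.0713), in a range of 0.00856 to 0.0837.

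In fatty acid synthesis, SCD fell while FASN and ACLY did not pass. SCD, the desaturase that makes oleate, was at 177, 189 and 119 TPM in DKO1 and at 347, 289.8 and 257 TPM in WT. The groups did not overlap and the mean was 1.84-fold lower in DKO1 (log2 fold change −0.90, SE 0.20, adjusted p = 0.0145). The SCD call was lost without WT replicate 1 (0.0597), in a range of 0.00212 to 0.0597. ACLY, which makes cytosolic acetyl-CoA from citrate, was at 96.8, 85.5 and 82.6 TPM in DKO1 and at 115, 104 and 104 TPM in WT, without overlap (log2 fold change −0.29, SE 0.11, adjusted p = 0.0932). FASN, fatty acid synthase, was low in both lines, at 2.57, 2.09 and 2.03 TPM in DKO1 and 2.69, 2.21 and 2.17 TPM in WT (log2 fold change −0.06, SE 0.15, adjusted p = 0.816). SCD thus stood at 58.4 to 90.3 times the FASN level in DKO1 samples and 119 to 131 times in WT samples. Their transcripts had 47.1% and 65.3% GC, and the part of GC content in this ratio was not tested.

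Shifts of replicate 2 went with base composition. Of 15 members with at least 50% GC, a division chosen after the data were seen, replicate 2 was below replicates 1 and 3 for 11 in DKO1 and 12 in WT, and its median shift on the log2(TPM + 1) scale was −0.84 in DKO1 and −0.38 in WT. Over 4681 tested genes with at least 50% GC the median shift was −0.44 and −0.18. Below 50% GC it was 0.30 in DKO1 and 0.17 in WT over members, and 0.10 and 0.09 over tested genes. EBP, for example, was at 11.3 TPM in DKO1 replicate 2 against 29.9 and 38.9 TPM in the other DKO1 samples, and at 20.7 TPM in WT replicate 2 against 33.3 and 29.8 TPM. FASN and ACLY shifted little in either line, by −0.09 and −0.06 in DKO1 and by −0.09 and −0.07 in WT. Across the 26 members, the shift of replicate 2 on the log2(TPM + 1) scale correlated with transcript GC content at r = −0.74 in DKO1 and −0.76 in WT, and across 11321 tested genes with a coding transcript at −0.61 and −0.58. These are descriptions across genes that share the same libraries. For the change between lines, the correlation with GC content was r = 0.33 over members and 0.18 over tested genes, and neither was tested.

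Of members divided at 50% GC, 5 of 11 below it were called lower in DKO1 and 1 higher, against 1048 lower and 1152 higher of 6640 tested genes. Of 15 members at or above it, 1 was called lower and 1 higher, against 124 lower and 915 higher of 4681 tested genes. The median log2 fold change below the division was −0.61 over members and −0.06 over tested genes, and at or above it −0.06 and 0.20. The part of base composition in the members' changes was not tested. Without both replicate 2 samples, 2 members remained called lower, IDI1 and CYP51A1, and 1 higher, SQLE, in a fit of 2 samples against 2. The log2 fold changes of the other members called lower were then −1.04 for SCD, −0.80 for MSMO1, −0.66 for STARD4 and −0.41 for ACAT2, with adjusted p-values of 0.051, 0.0553, 0.0678 and 0.185.

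**Figure D3:**
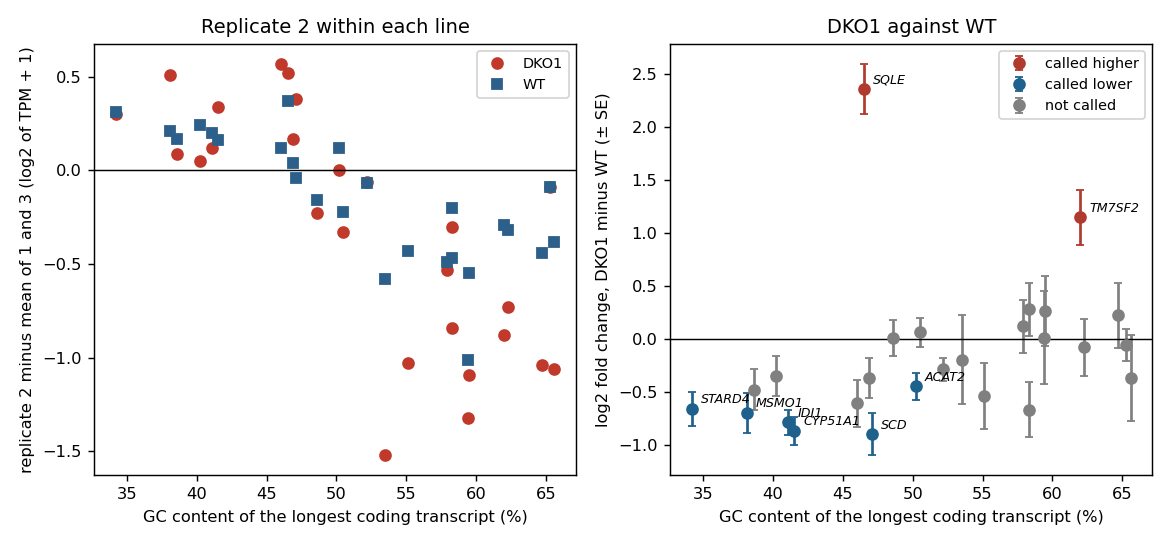
GC content of the longest coding transcript of 26 synthesis genes against the log2 shift of replicate 2 from the mean of replicates 1 and 3 in DKO1 (circles) and WT (squares), on the left, and against the log2 fold change, DKO1 minus WT, with its standard error, on the right. The shift of replicate 2 falls as GC content rises (r = −0.74 in DKO1 and −0.76 in WT), with FASN and ACLY near 0, and 5 of the 6 members called lower have less than 50% GC.

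Of 81 further genes of sterol, isoprenoid and fatty acid metabolism, 73 passed the filter. Of those, 15 rose (20.5%) and 6 fell (8.22%) in DKO1, shares near those of all tested genes (18.8% and 9.6%). Among 26 tested genes of sterol transport and control, 8 rose (30.8%) and 1 fell (3.85%). The gene that fell was MBTPS2, named after its values were seen. MBTPS2 averaged 10.9 ± 1.71 TPM in DKO1 and 16.2 ± 1.53 TPM in WT (SD, n = 3 each; log2 fold change −0.54, SE 0.16, adjusted p = 0.0428). That call was lost when mitochondrial and spike-in rows were dropped (0.0691) and without both replicate 2 samples (0.159). NPC2, which lifts cholesterol out of the lysosome, was at 102, 80.4 and 88.3 TPM in DKO1 and at 39.8, 35.4 and 30.2 TPM in WT, with no overlap (log2 fold change 1.34, SE 0.15, adjusted p = 0.000486, called in each of 15 alternatives). Its partner NPC1 and the lysosomal lipase LIPA, chosen after their values were seen, averaged 26.2 ± 2.65 and 61.7 ± 12.3 TPM in DKO1 and 18.6 ± 2.19 and 40.3 ± 2.88 TPM in WT (SD, n = 3 each; adjusted p = 0.0441 and 0.035). Both calls were lost under median-ratio scaling (0.17 and 0.161), NPC1 in all 6 fits that leave out 1 sample (0.0533 to 0.169) and LIPA in 5 of them (0.0755 to 0.128 where lost). OSBP and SOAT1, also named after their values were seen, averaged 64.7 and 55.8 TPM in DKO1 and 44.4 and 43 TPM in WT. Their log2 fold changes were 0.53 and 0.37 (adjusted p = 0.0152 and 0.0465), and median-ratio scaling took the adjusted p to 0.121 and 0.348.

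MYLIP, a ubiquitin ligase for lipoprotein receptors, was at 5.24, 5.93 and 5.46 TPM in DKO1 and at 2.82, 2.51 and 2.34 TPM in WT (log2 fold change 0.88, SE 0.15, adjusted p = 0.00372). Quantile normalization took its adjusted p to 0.0628, in a range of 0.00192 to 0.0628. The sterol-binding protein OSBPL2 was at 15.8 ± 1.22 TPM in DKO1 and 9.78 ± 0.543 TPM in WT (adjusted p = 0.0115). INSIG2, a relative of INSIG1, was at 25, 26.2 and 29.8 TPM in DKO1 and at 18.7, 19.9 and 13.8 TPM in WT (log2 fold change 0.61, SE 0.17, adjusted p = 0.0319), opposite in sign to INSIG1. The OSBPL2 call was lost under median-ratio scaling (0.0557), quantile normalization (0.0574) and without WT replicate 2 or 3 (0.0594 and 0.0612), in a range of 0.0077 to 0.0907, and that of INSIG2 under median-ratio scaling (0.0715) and in all 6 fits that leave out 1 sample (0.0511 to 0.111), in a range of 0.012 to 0.111.

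On the isoprenoid branch, which feeds dolichol, ubiquinone and protein prenylation, 1 of 15 tested genes rose (6.67%) and 2 fell (13.3%), against 18.8% and 9.6% of all tested genes. DHDDS and NUS1, the 2 subunits of the enzyme that makes dolichol chains, were called in opposite directions. DHDDS was at 29.5, 21.7 and 33.7 TPM in DKO1 and 18.2, 14.1 and 18.2 TPM in WT (log2 fold change 0.70, adjusted p = 0.0328). NUS1 was at 54.4, 75.2 and 65.4 TPM in DKO1 and 87.7, 106 and 90.4 TPM in WT (log2 fold change −0.54, adjusted p = 0.032). RABGGTB, a subunit of the prenyltransferase for Rab proteins, averaged 206 ± 72.9 TPM in DKO1 and 345 ± 17.1 TPM in WT (SD, n = 3 each; log2 fold change −0.80, adjusted p = 0.0438). With 1 sample left out, the DHDDS and RABGGTB calls were lost in 5 of 6 fits and that of NUS1 in 4, with adjusted p-values up to 0.119, 0.132 and 0.126, and each was lost without any 1 of the WT samples or DKO1 replicate 1.

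Of 32 tested genes that activate, elongate or store fatty acids, 6 rose (18.8%) and 3 fell (9.38%), shares near those of all tested genes (18.8% and 9.6%). ACSL5, an acyl-CoA synthetase of the intestinal epithelium, was at 28.1, 25.3 and 38.2 TPM in DKO1 and at 2.64, 2.14 and 1.44 TPM in WT (log2 fold change 3.36, SE 0.22, adjusted p = 4.34e-05). ELOVL4, which makes very long chain fatty acids, was at 7.14, 9.61 and 6.2 TPM in DKO1 and at 0.02, 0 and 0 TPM in WT (log2 fold change 3.08, SE 0.18, adjusted p = 2.56e-05). ACSS1, the mitochondrial acetyl-CoA synthetase, was at 2.68, 2.4 and 2.48 TPM in DKO1 and at 0, 0.03 and 0.02 TPM in WT (log2 fold change 1.79, SE 0.12, adjusted p = 4.88e-05). ELOVL4 and ACSS1 were close to silent in WT and passed the filter through DKO1, so a call could have no other direction. Their log2 fold changes depend on the pseudocount and were 6.16 and 4.50 with a pseudocount of 0.1. MID1IP1, ACACB and HACD1, named after their values were seen, also rose (log2 fold change 0.76, 0.73 and 0.52, adjusted p = 0.008, 0.00976 and 0.0441). They averaged 5.15, 2.09 and 23.7 TPM in DKO1 and 2.64, 0.867 and 16.1 TPM in WT. ACACB passed the filter through DKO1. These calls were lost under quantile normalization (0.174, 0.308 and 0.0862).

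ELOVL6, which elongates palmitate, fell to 17.4, 21.6 and 25.2 TPM in DKO1, against 59.6, 55.8 and 56.2 TPM in WT (log2 fold change −1.39, SE 0.15, adjusted p = 0.000469). Its groups did not overlap and the call held in each of 15 alternatives, as did that of ACSL5. ACSL4 and LPIN1, the other 2 of this list that fell, were named after their values were seen. ACSL4, the synthetase that prefers arachidonate, averaged 26.5 ± 5.77 TPM in DKO1 and 51.5 ± 2.76 TPM in WT, and LPIN1, a phosphatidate phosphatase, 6.07 ± 1.03 and 9.84 ± 1.08 TPM (SD, n = 3 each; adjusted p = 0.0062 and 0.033). The ACSL4 call held in each of 15 alternatives, and that of LPIN1 was lost without WT replicate 1, 2 or 3 (0.12, 0.0908 and 0.0859) or DKO1 replicate 1 (0.0974), in a range of 0.0093 to 0.12.

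**Figure D4:**
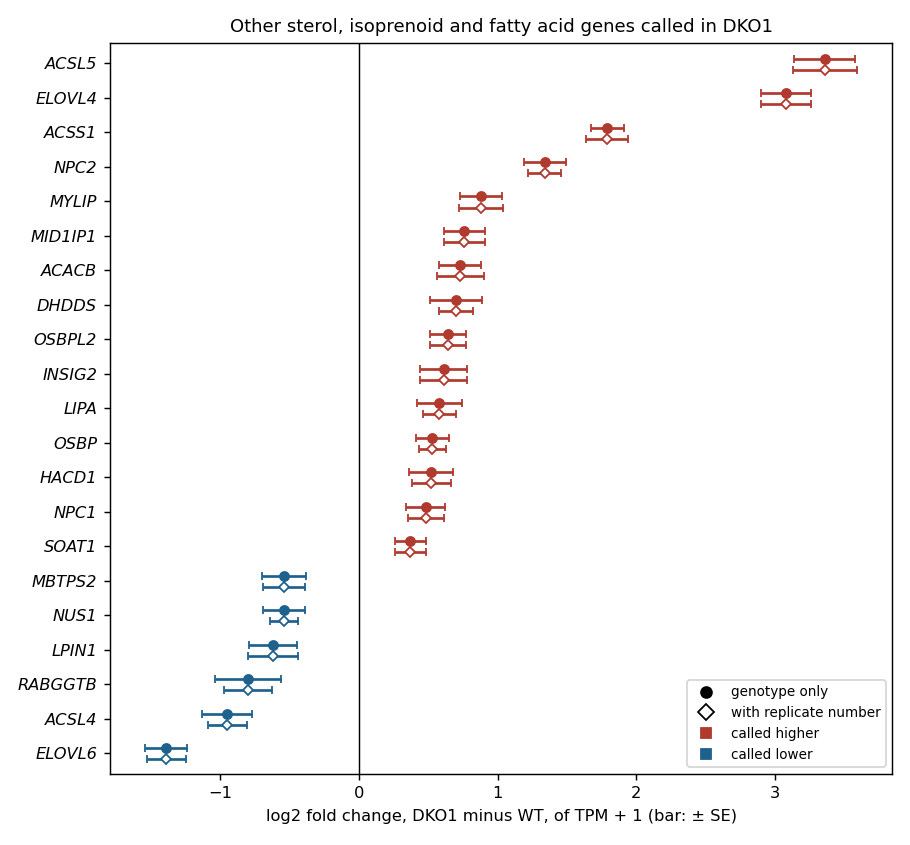
Log2 fold change of TPM + 1, DKO1 minus WT, with its standard error for the 21 called genes among 73 tested genes of sterol, isoprenoid and fatty acid metabolism outside the members, from fits with genotype only (filled circles) and with the replicate number (open diamonds). ACSL5 and ELOVL4 lie above 3 and ELOVL6 at −1.39.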

How the data were processed

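RNA of 6 HCT116 samples, 3 DKO1 and 3 WT, was sequenced per the labels. The authors deposited TPM per gene with 2 decimals. STAR 2.5.3a, RSEM 1.2.21, Trim Galore 0.4.0, edgeR 3.12.1 and FastQC, and the build names GRCh37 and hg19, stand in the submitters' processing notes; the sources used here give neither the annotation nor the use of strand. TPM keeps no record of depth, so depth is unknown and no counting interval is given. The 77 spike-in rows (1.28% to 2.01% of TPM) were left out of tests. Symbols came from the reference gene table and GENCODE 29, matched by identifier (90.5% of human rows).

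With limma 3.58.1 in R 4.3.3, genes that reached 1 TPM in 3 or more samples were fitted on log2(TPM + 1), a scale that understates changes of low genes, with genotype as the one term and a trend in the variance; p-values were two-sided and Benjamini-Hochberg adjusted over all 13604 tested genes, with calls below 0.05. The fit was also run on simulated data whose noise was independent between samples, which cannot show how it handles deviations that samples share. Labels do not say whether replicates were separate cultures; p-values then reflect how far these samples spread, possibly for technical reasons alone. Deviations from the group means correlated between samples with the same replicate number, at 0.35, 0.572 and 0.267 for numbers 1, 2 and 3 over tested genes. The numbers were therefore taken to pair the samples, and the fit with the number as a block is given where it changes a call. Printed values come from the fit with genotype only unless another fit is named. The members and gene lists were chosen with earlier results of these data known, so no list was tested and no p-value was adjusted over a list. Values by sample are given for called members and for the regulators, with shorter values for most others, and up to 4 called genes with the largest change are named from each list of other genes. The remaining called genes of those lists were named after their values were seen. Tried in turn were quantile normalization, median-ratio scaling over genes above 0 in all samples, a filter at a mean of 5 TPM, the absence of any filter, a pseudocount of 0.1, the removal of mitochondrial and spike-in rows with rescaling, no variance trend, the replicate block, and each sample left out; leaving out both replicate 2 samples was added after the data were seen.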

Additional observations from a re-analysis of the deposited data

How the results depend on the processing

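Over all tested genes 2558 were called higher and 1306 lower in DKO1 (66.2% of calls higher). The higher share was 49.8% under median-ratio scaling (2080 and 2094 genes), 48.4% after quantile normalization and 76.5% when mitochondrial and spike-in rows were dropped. Under these scalings the median over all tested genes was −0.05, −0.07 and 0.19 (log2), and the members' median was −0.46, −0.30 and −0.21. The higher count was 4400 without a filter and 1145 above a mean of 5 TPM. Leaving out each sample gave 926 to 1949 higher and 478 to 1960 lower genes, 1 to 2 members higher and 2 to 6 lower, and 6 to 11 other pathway genes higher and 2 to 10 lower. Members lower numbered 2 without WT replicate 1, 3 without WT replicate 2 and 3 without DKO1 replicate 1. Members higher numbered 1 above a mean of 5 TPM and 1 under quantile normalization, and other pathway genes higher numbered 9 above that mean and 8 under median-ratio scaling. With the replicate block, 9 members were lower and 2 higher, with 3053 higher and 1817 lower genes. Beyond the calls given above it changed none among the members. Other pathway genes higher then numbered 17 (23.3%) and lower 9 (12.3%), against 22.4% and 13.4% of all tested genes. STARD5 (adjusted p = 0.177, and 0.0429 with the block) and ELOVL5 (0.0631 and 0.0293) were added as higher. LBR (0.0598 and 0.0397), SCD5 (0.0653 and 0.0174) and HACD3 (0.0958 and 0.0466) were added as lower. Without both replicate 2 samples, 747 genes were higher and 295 lower, 1 member was higher and 2 lower, and 3 other pathway genes were higher and 2 lower.

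Signs changed among members that were not called. MVK stood at −0.0039 (log2 fold change) with a pseudocount of 0.1, −0.12 under median-ratio scaling and −0.28 after quantile normalization, and from −0.33 to 0.44 with 1 sample left out. Under quantile normalization PMVK was at −0.13, LSS at −0.024 and SREBF1 at −0.019. Under median-ratio scaling FDFT1 was at −0.14, NSDHL at −0.08 and SREBF2 at −0.021. When mitochondrial and spike-in rows were dropped SCAP was at 0.021 and FASN at 0.024. Without both replicate 2 samples EBP was at 0.11 and SCAP at 0.059. With 1 sample left out the log2 fold change ranged from −0.11 to 0.18 for FDFT1, −0.011 to 0.17 for NSDHL, −0.55 to 0.30 for EBP, −0.01 to 0.57 for SREBF1, −0.045 to 0.35 for SREBF2, −0.31 to 0.17 for SCAP and −0.13 to 0.014 for FASN. The cause of these changes was not tested. DNMT3B was called in 8 of 15 alternatives (adjusted p from 0.0171 to 0.11). TPM without depth limits what can be said of members near 1 TPM, such as TM7SF2, SQLE and MVD.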
